A study of Mus musculus with 8 samples.

Results

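Integrin subunits are the transmembrane chains of the receptors by which cells hold on to the extracellular matrix. The 8 genes described here are Itga3, Itga5, Itga6, Itga7, Itgav, Itgb1, Itgb3 and Itgb5. They were taken by gene symbol, and were chosen with earlier results of these data known. They are 8 of the 8252 genes that the array's annotation names alone on at least 1 probe set. They had 15 of the array's 12488 probe sets, a probe set being a group of short probes that together give 1 value for a transcript. The samples were mouse aortic endothelial cells, which form the inner lining of the aorta, and each of the 8 was run on an Affymetrix array of its own. In the confluent group (4 samples) the cells had grown into a mature monolayer, and in the subconfluent group (4 samples) they covered under 50% of the dish, with an equal number of cells taken for each sample. The labels name no treatment, and the strain, age and passage of the cells and whether the samples were separate cultures are not given in the sources used here. The p-values therefore measure the spread between these samples, which may be technical.

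An integrin is a pair of 1 alpha and 1 beta chain, and the pair sets what the receptor binds. Itgb1 pairs with Itga5 into a fibronectin receptor, with Itga3, Itga6 or Itga7 into laminin receptors, and also with Itgav. Itgav with Itgb3 or Itgb5 binds vitronectin and other ligands that carry the RGD motif. Inside the cell talin and kindlin switch the receptors on, and other proteins tie them to actin at focal adhesions. In endothelium integrins fix the cells to the basement membrane and are used in spreading and migration. The comparison asks whether the transcripts of these receptors differ between cells in a closed monolayer and cells with free space around them.

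The deposited values are signals brought to a target of 500 on every array. The scale factors ran from 3.05 to 13.3 and were highest on subconfluent replicate 2 and lowest on subconfluent replicate 4. Precision is limited by the number of arrays, and the median signal per array was 169 to 187. Of 14 endothelial markers on the array only Eng reached a mean signal of 200 over the 8 arrays, at 695 to 954 per array, while Pecam1 gave 50.1 to 163, Cdh5 5.5 to 29.5, Kdr 19.7 to 204, Tek 2.4 to 21.3 and Vwf 12.6 to 30.9. Of 13 markers of fibroblasts and pericytes 8 reached 200. The defining endothelial markers were thus low on these arrays, and the cells are called by their label below.

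For 3 genes the bases before the start site are shown. Itgb1 was taken because all of these alpha chains can pair with it. Itgb5 was taken because it held the beta-chain probe set with the smallest p. Ccn1, an integrin ligand, was taken because it differed between the groups. The bases are from RefSeq on build GRCm38.p6, 250 bases up to the start site, on the gene's strand. Itgb1 lies on the plus strand at chr8:128685404-128685653, Itgb5 on the plus strand at chr16:33829415-33829664 and Ccn1 on the minus strand at chr3:145649986-145650235. In Itgb1 and Ccn1 capitals mark GGAATG, the core of sites for TEAD factors, or its reverse complement, and in Itgb5 they mark GGGCGG, the GC box, or its reverse complement.
Itgb1: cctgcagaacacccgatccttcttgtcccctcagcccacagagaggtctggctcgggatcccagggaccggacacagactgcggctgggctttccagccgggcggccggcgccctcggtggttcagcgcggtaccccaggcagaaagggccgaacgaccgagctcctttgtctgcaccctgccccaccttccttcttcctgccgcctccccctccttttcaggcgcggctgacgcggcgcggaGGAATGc
Ccn1: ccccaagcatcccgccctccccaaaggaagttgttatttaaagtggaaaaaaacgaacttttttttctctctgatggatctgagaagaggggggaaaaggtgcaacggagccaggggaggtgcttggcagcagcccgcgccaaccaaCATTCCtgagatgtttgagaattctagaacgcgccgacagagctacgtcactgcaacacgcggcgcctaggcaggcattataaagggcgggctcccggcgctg
Itgb5: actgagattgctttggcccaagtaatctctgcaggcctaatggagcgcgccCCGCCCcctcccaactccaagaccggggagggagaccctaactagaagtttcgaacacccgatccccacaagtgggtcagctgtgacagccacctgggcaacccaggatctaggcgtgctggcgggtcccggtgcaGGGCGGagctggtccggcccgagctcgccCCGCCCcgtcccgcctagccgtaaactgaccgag
The GGAATG match began 7 bases before the start site of Itgb1, and the match of Ccn1 lay 103 bases before it on the other strand. The 3 GC boxes of Itgb5 began 199, 63 and 34 bases before its start site. Promoters were found for 5 of the 8 integrin genes, with 2 start sites for Itga3 and so 6 windows, and no entry was found for Itga6, Itga7 and Itgb3. Searched on both strands, GGAATG was in 1 of the 6 windows, TGANTCA, the AP-1 site, in 0 and GGGCGG in 5. Of all 32851 RefSeq windows of the same length 12.6% held GGAATG, 6.75% TGANTCA and 32.7% GGGCGG. A match is a string of letters and no measured site.

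None of the integrin subunits passed the test. Of the 15 probe sets 9 reached the minimum mean signal of 200 and were tested, for Itga3, Itga7, Itgav, Itgb1 and Itgb5, and 0 of them passed at an adjusted p of 0.05 by limma with Benjamini-Hochberg adjustment over 6007 probe sets. Over all probe sets tested 6.81% passed, 2.75% higher and 4.06% lower in subconfluent cells. At an unadjusted p under 0.05 the integrin probe sets numbered 0 of 9, against 25.9% of all. In 0 of 9 did the groups' values lie apart, against 16.9% of all. The tested integrin probe sets differed by a median of 0.18 on the log2 scale, 5 up and 4 down, against 0.01 for all probe sets, and the median size of a difference was 0.22 against 0.25. Differences are those of log2(signal + 50), subconfluent minus confluent, which understates the change of low signals. In such bulk samples fewer cells of a type and less RNA per cell cannot be told apart.

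Both groups are numbered 1 to 4 as experiments, and arrays of the same number deviated together, so the comparison was also fitted with the number as a block. In that fit 21.2% of all probe sets passed, 9.94% higher and 11.3% lower, and again 0 of the 9 integrin probe sets. At an unadjusted p under 0.05 there were 2 of 9 in that fit, 1 of Itgb5 and 1 of Itgav, against 35.6% of all.

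Itgb1, the common beta chain, was bright on every array and did not pass on either probe set. Its probe set 100123_f_at gave 11254, 10826, 9293 and 9972 on confluent replicates 1 to 4 and 11814, 18614, 9736 and 10336 on the subconfluent ones. The subconfluent value of replicate 2 stood above the rest, and the other 7 values overlapped. The means were 10336 ± 876 and 12625 ± 4087 (SD, n = 4 each). The difference of 0.24 (SE 0.20) had a 95% interval of -0.19 to 0.67, that is from 0.877-fold to 1.59-fold, and an adjusted p of 0.484. All 4 pairs were higher in subconfluent cells, by 0.07, 0.78, 0.07 and 0.05, so the pair of replicate 2 made most of the mean.

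A second Itgb1 probe set, 100124_r_at, comes from the same sequence entry as the first and is no independent measure. By its suffix it keeps only part of the array's rules for probes. It gave 2853, 3085, 2496 and 2745 on the confluent arrays and 3368, 4364, 2364 and 2876 on the subconfluent ones. Replicate 2 was again the highest, and replicate 3 was lower in subconfluent cells. The difference was 0.18 (SE 0.19, 95% interval -0.24 to 0.60, adjusted p = 0.61). Without subconfluent replicate 2 the differences of the Itgb1 probe sets were 0.04 and 0.03.

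Itgb5, a beta chain that pairs only with Itgav, had the smallest p of the beta chains, on 1 of its 2 probe sets, and did not pass. Probe set 100601_at gave 789, 876, 648 and 526 on the confluent arrays and 930, 1330, 860 and 708 on the subconfluent ones. Each subconfluent value was above the confluent value of its number, but the groups overlapped. The means were 710 ± 155 and 957 ± 266, with a difference of 0.39 (SE 0.22, 95% interval -0.08 to 0.87, adjusted p = 0.279). The pairs differed by 0.22, 0.58, 0.38 and 0.40. In the blocked fit the interval was 0.11 to 0.68 and the p 0.0125, and after adjustment over all probe sets the p was 0.0565, so it did not pass.

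The other Itgb5 probe set, 162218_f_at, did not follow it. By its suffix the probes match a family of related sequences. The same suffix stands on Itgb1 100123_f_at, Itgav 104386_f_at and Itga7 161497_f_at, so the same limit holds for them. It gave 325, 318, 304 and 273 on the confluent arrays and 262, 413, 292 and 237 on the subconfluent ones, with a difference of -0.04 (SE 0.18, 95% interval -0.44 to 0.37, adjusted p = 0.929). Only the pair of replicate 2 was higher in subconfluent cells, by 0.33. The log2 ratio of 100601_at to 162218_f_at was 1.16, 1.33, 0.98 and 0.84 in confluent and 1.65, 1.58, 1.41 and 1.40 in subconfluent cells, so the groups lay apart for this ratio. This check was added after the values were seen. Its exact permutation p was 0.0286, two-sided, the smallest that 4 against 4 arrays allow, and 0.257 after adjustment over the 9 pairs of probe sets of 1 gene. The other 8 pairs of probe sets had an adjusted p of 0.8, by the same exact test.

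**Figure D1:**
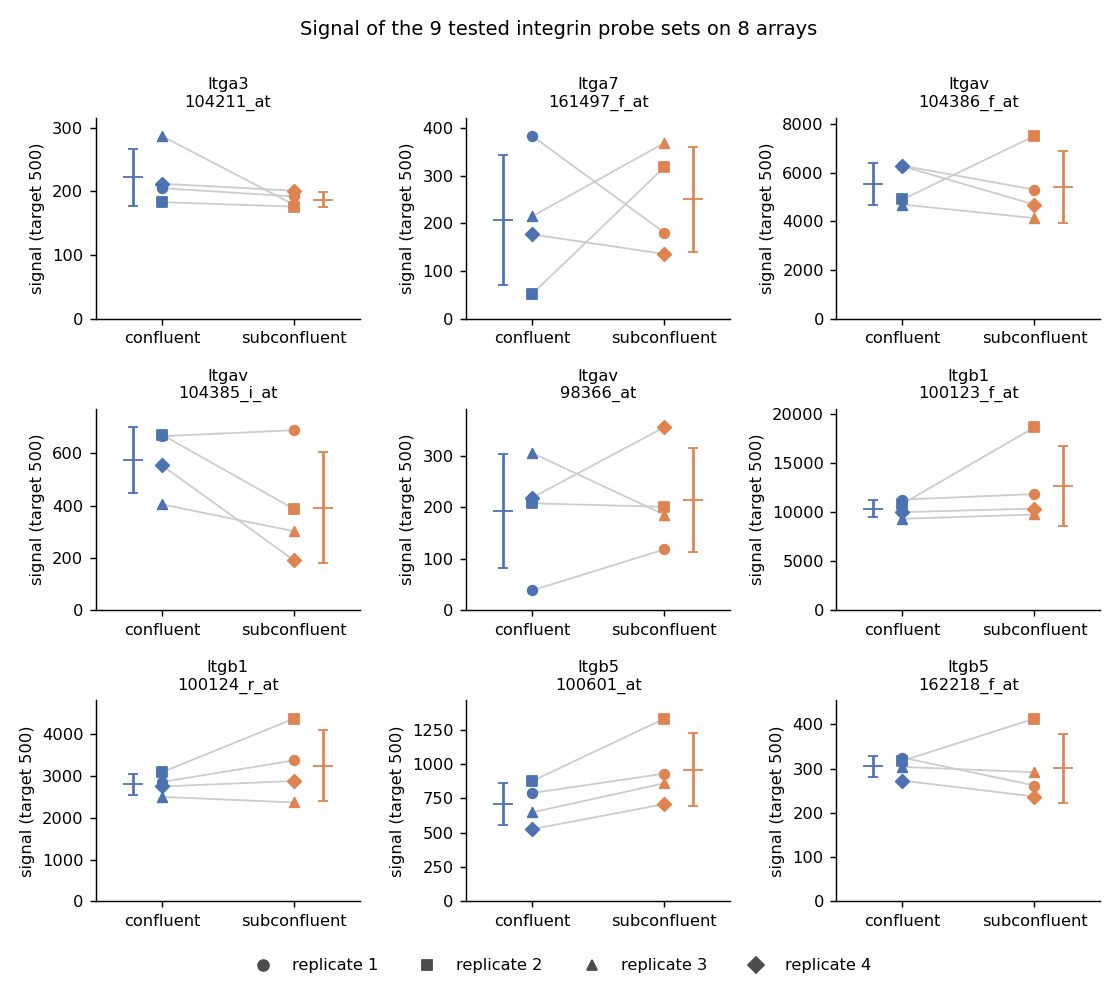
Signal of the 9 tested integrin probe sets on each array (vertical axes, linear, target 500), confluent in blue and subconfluent in orange, with marker shapes for the replicate number, grey lines joining arrays of one number, and bars at the sides for the mean and SD of 4 arrays. Groups overlap in all 9 panels, Itgb1 100123_f_at reaches 18614 on subconfluent replicate 2, and only Itgb5 100601_at shows 4 lines rising by more than 0.2 on the log2 scale.

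Itgav, the alpha chain of the vitronectin receptors, had 3 tested probe sets that differed in sign. The brightest, 104386_f_at, gave 6288, 4898, 4691 and 6266 on the confluent arrays and 5300, 7510, 4132 and 4687 on the subconfluent ones. Replicate 2 was higher in subconfluent cells and the other replicates were lower. The means were 5536 ± 860 and 5407 ± 1481, and the difference was -0.06 (SE 0.20, 95% interval -0.49 to 0.38, adjusted p = 0.897).

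Probe set 104385_i_at, from the same sequence entry of Itgav, had the largest difference of the tested integrin probe sets. It gave 666, 672, 405 and 554 on the confluent arrays and 689, 387, 302 and 191 on the subconfluent ones. Subconfluent replicate 1 was above all confluent values and the other subconfluent arrays were below all confluent ones. The means were 575 ± 125 and 392 ± 213, with a difference of -0.59 (SE 0.30, 95% interval -1.26 to 0.07, adjusted p = 0.244). In the blocked fit the interval was -1.07 to -0.12, the p 0.0207, and 0.0787 after adjustment. The suffix marks a set with fewer probes than the array's standard.

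The third Itgav probe set, 98366_at, was dim and gave 38.2, 208, 306 and 219 on the confluent and 118, 201, 186 and 356 on the subconfluent arrays. Its pairs went up and down, and the difference of 0.22 (SE 0.42) had an interval of -0.69 to 1.14 and an adjusted p of 0.792. The 3 probe sets of Itgav thus gave differences of -0.06, -0.59 and 0.22, and none of them passed.

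Among the alpha chains of laminin receptors, Itga3 was just above the minimum with a mean of 204. Probe set 104211_at gave 205, 183, 287 and 212 on the confluent and 192, 176, 179 and 201 on the subconfluent arrays. All 4 pairs were lower in subconfluent cells, though the pair of replicate 3 differed by -0.56 and the others by -0.07, -0.04 and -0.06. The difference was -0.18 (SE 0.18, 95% interval -0.59 to 0.22, adjusted p = 0.588). A second Itga3 probe set, 104210_at, was under the minimum, with means of 173 ± 88.4 and 174 ± 55.1.

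Itga7, a laminin receptor chain best known from muscle, was measured on 3 probe sets, of which 161497_f_at was tested. It gave 384, 51.9, 215 and 177 on the confluent and 181, 318, 369 and 136 on the subconfluent arrays. Its pairs ran from -0.91 to 1.85, the widest of the tested integrin probe sets. The difference was 0.33 (SE 0.41, 95% interval -0.58 to 1.23, adjusted p = 0.674). Probe set 93061_at was under the minimum at 175 ± 60.8 and 178 ± 86.9, and so was 160086_at at 16.9 ± 10.9 and 22.5 ± 11.7.

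Itga5, Itga6 and Itgb3 were under the minimum on their only probe sets, and their values are given here with no test. They enter tests only as a part of the partner ratios below. Itga5, the fibronectin receptor's alpha chain, gave 27.1, 62.4, 22.2 and 12.1 on the confluent and 76.2, 75.2, 18.6 and 20.4 on the subconfluent arrays. Itga6, a laminin receptor chain, gave 41.6, 9.8, 3.1 and 2.5 on the confluent and 25.4, 68.5, 7.4 and 32.6 on the subconfluent arrays. Itgb3, which with Itgav makes a vitronectin receptor, gave 25.5, 90.5, 16.2 and 30.2 on the confluent and 15.5, 57.7, 62.0 and 49.9 on the subconfluent arrays. All 3 stayed under 100 on every array with overlapping groups, and a low transcript level and a weak probe set cannot be told apart here. Signals of different probe sets cannot be set against each other as levels of transcript, so the subunits have no order.

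**Figure D2:**
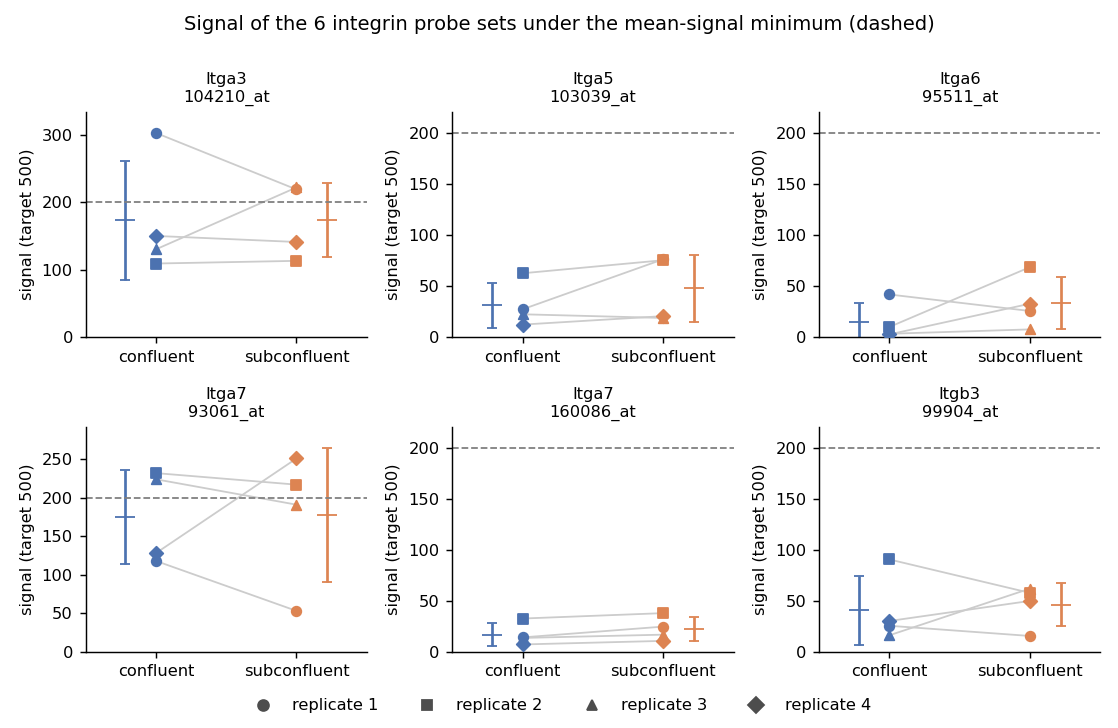
Signal of the 6 integrin probe sets under the minimum mean signal of 200 (dashed line) on each array (vertical axes, linear), confluent in blue and subconfluent in orange, with marker shapes for the replicate number, lines joining arrays of one number, and bars for the mean and SD of 4 arrays. Itga5, Itga6, Itgb3 and Itga7 160086_at lie below the line on all 8 arrays, and Itga3 104210_at and Itga7 93061_at lie around it.

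The intervals of the unpaired fit bound what these arrays could have missed in that fit. In 6 of the 9 tested integrin probe sets the whole 95% interval lay within a 2-fold change, against 76.7% of all probe sets tested. For Itgb1 the interval of the brighter probe set ended at a 1.59-fold higher level and that of the other at 1.51-fold. The intervals of Itgav 104385_i_at, Itgav 98366_at and Itga7 161497_f_at passed 2-fold, with a fall of up to 2.4-fold for the first. In the blocked fit the interval of Itgav 98366_at was -0.37 to 0.82 on the log2 scale, within 2-fold. Those of Itgav 104385_i_at (-1.07 to -0.12) and Itga7 161497_f_at (-0.55 to 1.21) passed 2-fold there too. A p above the threshold does not show that a subunit was level.

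**Figure D3:**
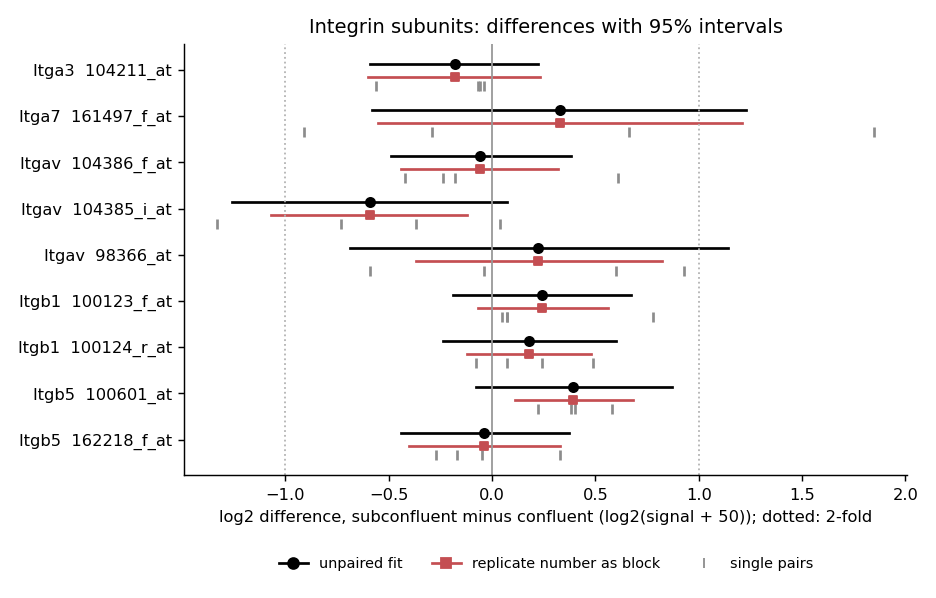
Difference of each tested integrin probe set on the log2(signal + 50) scale (horizontal axis, subconfluent minus confluent), with 95% intervals from the unpaired fit (black) and the fit with the replicate number as a block (red), the 4 single pairs as grey ticks and dotted lines at 2-fold. All black intervals cross 0, and of the red ones those of Itgav 104385_i_at and Itgb5 100601_at do not.

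The arrays came from 4 chip lots, and only the lots called A (replicate 1 of both groups) and C (confluent replicate 3, subconfluent replicates 3 and 4) held both groups. With the lot as a fixed block, which rests on these 5 arrays for the difference, the adjusted p of the integrin probe sets ran from 0.405 to 0.703. Itgb5 100601_at differed by 0.24 in that fit, by 0.22 within lot A and by 0.25 within lot C, so it was higher in subconfluent cells in both. Itgav 104385_i_at differed by -0.35 in that fit, by 0.04 within lot A and by -0.64 within lot C. Itgb1 100123_f_at differed by 0.09 in that fit, by 0.07 within lot A and by 0.11 within lot C. Subconfluent replicate 2 was the highest array for both Itgb1 probe sets, both Itgb5 probe sets and Itgav 104386_f_at. It was alone in its lot and had the highest scale factor. With the log2 scale factor as a covariate the Itgb1 probe sets differed by 0.23 and 0.17, against 0.24 and 0.18 in the main fit. Itgb5 100601_at then differed by 0.38 against 0.39, Itgb5 162218_f_at by -0.05 against -0.04, and Itgav 104386_f_at by -0.06 in both. The part of the lot or of the scale factor in the values of that array was not tested.

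Since a receptor needs both chains, 7 known partner pairs were compared as the log2 ratio of their signals within each array. The absolute ratio carries the probes' own brightness, so only its difference between the groups is read. The ratio of Itgav to Itgb1 was -0.90 ± 0.20 in confluent and -1.20 ± 0.08 in subconfluent cells, a difference of -0.30 (exact permutation p = 0.0571, two-sided). The ratio of Itgb5 to Itgav was -2.89 ± 0.43 and -2.44 ± 0.18, a difference of 0.45 (exact permutation p = 0.114). After adjustment over the 7 pairs both had a p of 0.4, so neither passed. By number the ratio of Itgav to Itgb1 was lower in subconfluent cells in 4 of 4 pairs, with differences of -0.31, -0.17, -0.25 and -0.47, and that of Itgb5 to Itgav was higher in 3 of 4. An exact sign-flip test over 4 pairs cannot give a p under 0.125, which the first of these had, or 0.438 after adjustment over the 7 ratios.

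The laminin receptor ratio of Itga3 to Itgb1 differed by -0.43 (exact permutation p = 0.229), and was lower in 4 of 4 pairs, with differences of -0.14, -0.82, -0.63 and -0.11. That of Itga7 to Itgb1 differed by 0.09 (exact permutation p = 0.943). The pairs with a chain under the minimum differed by 0.00 for Itga5 to Itgb1, 0.13 for Itga6 to Itgb1 and 0.18 for Itgb3 to Itgav, with exact permutation p-values of 1, 0.457 and 0.743. No partner ratio passed, and the smallest p that 4 against 4 arrays allow is 0.0286.

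**Figure D4:**
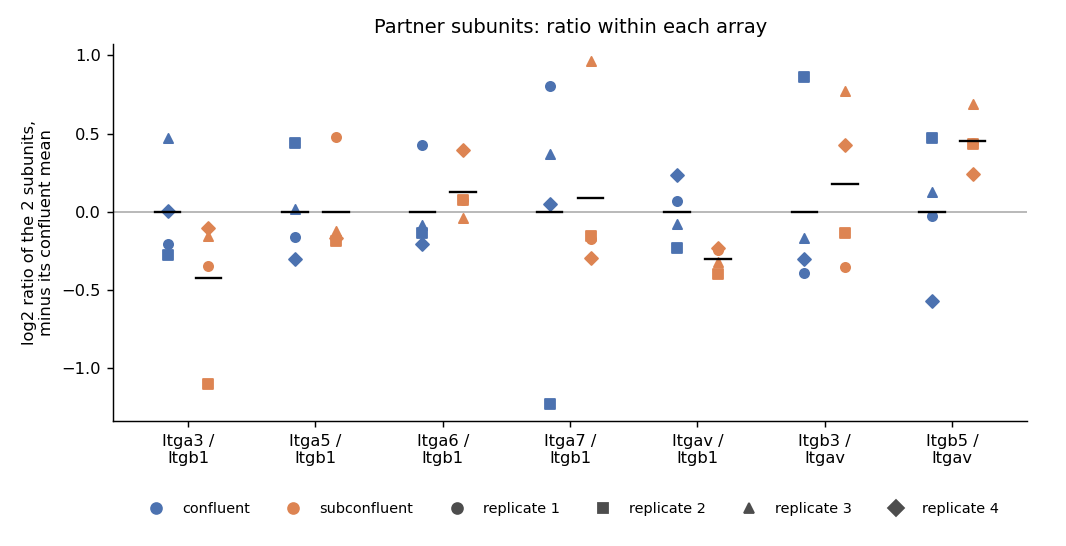
Log2 ratio of 2 partner subunits within each array minus the mean of that ratio over the confluent arrays (vertical axis), for 7 pairs, confluent in blue and subconfluent in orange, with marker shapes for the replicate number and black lines for the means of 4 arrays. Subconfluent means lie from -0.43 (Itga3 to Itgb1) to 0.45 (Itgb5 to Itgav), and the groups overlap in each pair.

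The tested genes whose pattern over the 8 arrays was most like that of Itgb5 100601_at were Zdhhc16, with a root mean square difference of 0.08 on the centred log2 scale, Tpm1 with 0.11 and Fstl1 with 0.13. The median over all genes was 0.46, and the probe set's own spread was 0.35. Zdhhc16 differed by 0.50, Tpm1 by 0.38 and Fstl1 by 0.26, and none of the 3 passed unpaired. In the blocked fit Zdhhc16 passed (adjusted p = 0.0238). For Itgav 104385_i_at the nearest were Ccni at 0.27, Dnajc1 at 0.28 and Ibtk at 0.28, against a median of 0.62 and an own spread of 0.54, so that likeness was looser. None of these passed unpaired, and Dnajc1 passed in the blocked fit (adjusted p = 0.0426). In that fit 22.2% of all genes passed. The near genes of both probe sets were picked for their likeness on the same arrays, so their p-values are no independent result.

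Of 19 other integrin genes listed, 11 were on the array and only Itgb7 was tested. Itgb7, a beta chain known from lymphocytes, differed by 0.20 (SE 0.21, adjusted p = 0.622). The collagen receptor chain Itga2 gave 33.8 to 152 over the 8 arrays, Itga4 35.6 to 79.8 and Itga8 7.2 to 56.1. The leukocyte chains gave 25.5 to 181 for Itgal, 15.8 to 39.3 for Itgam, 109 to 240 for Itgax and 89.0 to 279 for Itgb2. Itgb4, which pairs with Itga6 in epithelia, gave 51.8 to 298, Itgae 5.5 to 32.9 and Itgb2l 85.3 to 157.

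Among the ligands of integrins and the membrane proteins that sit beside them, some genes passed. With the probe set of highest mean signal for each gene, 5 of 21 tested ligand genes and 3 of 16 tested membrane partners passed, beside 7.22% of all 4670 genes tested. Of 33 ligand genes on the array 12 were under the minimum and not tested. Among these the groups lay apart in Npnt (63.0 ± 34.5 confluent and 288 ± 75.7 subconfluent) and Lama3 (32.1 ± 14.6 and 77.4 ± 19.3). In the rest of these they overlapped. In the blocked fit 22.2% of all genes passed. There 11 ligand genes passed, 3 higher and 8 lower, and 5 membrane partners, 2 higher and 3 lower. The ligand genes had a median difference of -0.32, the membrane partners of -0.20 and all genes of 0.00. The lists were chosen with earlier results of these data known, so their shares are no independent result. Whether these lists differ from the integrin subunits was not tested.

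Ccn2 and Ccn1, secreted proteins of the matrix that integrins bind, rose in subconfluent cells. Ccn2 gave 320, 432, 308 and 493 on the confluent and 5235, 7830, 2522 and 6739 on the subconfluent arrays, 12.0-fold higher (log2 3.59, SE 0.31, adjusted p = 0.000534). Ccn1, whose upstream bases are shown above, gave 590, 235, 312 and 289 on the confluent and 951, 1236, 642 and 1142 on the subconfluent arrays (log2 1.39, SE 0.27, adjusted p = 0.0179). In both genes the groups lay apart. Nid1, a basement membrane linker of laminin and collagen, had an adjusted p of 0.0511 at a log2 difference of 1.29, and 0.00221 in the blocked fit.

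Among the fibrillar collagens Col1a2 and Col3a1 fell in subconfluent cells, and Col1a1 differed by -0.39 (adjusted p = 0.28) and passed only in the blocked fit (adjusted p = 0.0221). Col1a2 gave 19553, 19849, 21697 and 15525 on the confluent and 7594, 12067, 11318 and 7057 on the subconfluent arrays, a log2 difference of -1.04 (SE 0.20, adjusted p = 0.0163). A second Col1a2 probe set, which keeps only part of the array's rules for probes, differed by -0.00 (adjusted p = 0.996), so the direction rests on the brighter one. Col3a1 gave 7008, 8880, 3729 and 3377 on the confluent and 2518, 2844, 1820 and 1503 on the subconfluent arrays, with -1.31 (SE 0.32, adjusted p = 0.0356) and with -1.40 and -1.30 on its other probe sets. With the chip lot as a block the adjusted p of Col3a1 was 0.0516.

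Both collagens are also markers of fibroblasts, and 4 of the 8 tested markers of fibroblasts and pericytes fell (Col1a2, Col3a1, Dcn and Lum), and 6 in the blocked fit. The summed signal of the 13 markers on the array ran from 62118 to 92879 on the confluent and from 35139 to 49987 on the subconfluent arrays. Most of that sum was Dcn (14708 ± 4485 and 3476 ± 799) and Col1a1 and Col1a2, which are also in the ligand list. The sum is thus no separate measure from the ligands. Fbln2 was higher in subconfluent cells (9710 ± 2119 and 11029 ± 1387) and did not pass. The 14 endothelial markers summed to 1372 to 1756 and 1267 to 1651. The largest part of these sums was Eng (883 ± 61.8 and 781 ± 78.4), the only 1 tested. The 7 smooth muscle markers summed to 2924 to 4810 and 1805 to 9397, and 3 of them were tested. Mylk fell (log2 -1.84), while Acta2 (1.14, adjusted p = 0.228 unpaired and 0.0172 in the blocked fit) and Tagln (1.47, adjusted p = 0.108 and 0.0102) differed the other way and passed only in the blocked fit. The sums of 13 macrophage markers were 3170 to 4488 and 2383 to 2989. Most of these sums was Cd14 (2541 ± 624 and 1521 ± 250), the only 1 tested, while Ptprc was at 9.57 ± 4.97 and 12.8 ± 4.22. The sums of 4 platelet markers were 203 to 277 and 205 to 326. The 9 lymphocyte markers summed to 827 to 1199 and 869 to 1238, and the 9 epithelial and mesothelial markers to 2068 to 5786 and 1766 to 2536. Of the last, Upk3b alone gave 4350 on confluent replicate 1. No marker was at 0, and the part of other cell types in the ligand result was not tested.

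Among ligands of the basement membrane, named here beyond the rule for genes, Agrn fell by 0.77 on the log2 scale (adjusted p = 0.0407), from 608 ± 101 to 339 ± 79.4. With the lot as a block its adjusted p was 0.0859, and its other probe set differed by -0.18 (adjusted p = 0.657). Lama5, the laminin chain of mature vessels, differed by -1.11 (adjusted p = 0.0919) and Col4a2 by -0.70 (adjusted p = 0.0692). Both passed in the blocked fit, at 0.00589 and 0.0263, and with the chip lot as a block, at 0.0461 and 0.0247. Other basement membrane ligands passed in neither fit. Col4a1 differed by -0.32, Lama4 by -0.13, Lamb1 by -0.22, Lamb2 by -0.43, Lamc1 by -0.06 and Hspg2 by 0.18. Nid1, given above, was higher in subconfluent cells. Fn1, fibronectin, was measured at 2585 ± 294 and 2575 ± 626, with a difference of -0.03 and a 95% interval of -0.45 to 0.39.

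Of the membrane partners Cd44, a hyaluronan receptor, rose, and Cd47, the integrin-associated protein that binds thrombospondin, and Sdc2, a syndecan that binds matrix with integrins, fell. Cd44 gave 109, 524, 277 and 272 on the confluent and 789, 1319, 548 and 1252 on the subconfluent arrays (log2 1.64, SE 0.37, adjusted p = 0.0308). Cd47 gave 1695, 1371, 986 and 981 on the confluent and 728, 529, 526 and 773 on the subconfluent arrays (log2 -0.91, SE 0.21, adjusted p = 0.0319, and 0.0617 with the chip lot as a block). Sdc2 gave 1303, 523, 581 and 787 on the confluent and 499, 184, 226 and 308 on the subconfluent arrays (log2 -1.25, SE 0.31, adjusted p = 0.0401). The groups lay apart in all 3. Plaur, the urokinase receptor, differed by 0.69 (adjusted p = 0.0724 unpaired and 0.0472 in the blocked fit).

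Of these 8 genes, Ccn2, Ccn1 and Col1a2 also passed when no probe set was left out for low signal, while Cd47 (adjusted p = 0.0547), Cd44 (0.0544), Col3a1 (0.0602), Sdc2 (0.0721) and Agrn did not. Within lot C, with 1 array against 2, none of the 8 passed. Ccn2 passed with any 1 array left out. Col1a2 did not pass without confluent replicate 3 or subconfluent replicate 4, at adjusted p-values of 0.0518 and 0.0509. Ccn1 did not pass without confluent replicate 3 or 4 or subconfluent replicate 2 or 4. Agrn lost its call in 7 of the 8 cases, all but subconfluent replicate 3. Cd44 (all but confluent 2 and subconfluent 3), Cd47 and Col3a1 (all but confluent 2 and 4) and Sdc2 (all but confluent 2 and subconfluent 1) each lost it in 6, with adjusted p-values of up to 0.0988.

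For the proteins on the inner side of the receptors, 40 genes for activation and actin linkage were listed. Of these 28 were on the array, and 9 of the 28 were under the minimum and not tested. Of the 19 tested, 0 passed, beside 7.22% of all genes, and 0 in the blocked fit, beside 22.2%. An unadjusted p under 0.05 was found for 3 of them. Whether this list differs from the ligands was not tested. Their median difference was 0.01. Talin, encoded by Tln1, which switches integrins on, differed by 0.00 (4869 ± 1052 and 4870 ± 972). By its suffix the Tln1 probe set keeps only part of the array's rules for probes. Ilk, the linked kinase, differed by 0.01 (718 ± 78.1 and 718 ± 31.9). Those with the smallest p were Tns2, a tensin, at -0.80 (adjusted p = 0.0935), Tgfb1i1, a paxillin relative, at 0.47, Actn1, an actin crosslinker, at 0.50 on a probe set of family sequence, and Vcl, vinculin, at -0.32. With a pair left out of the blocked fit, Vcl passed without replicate 2 (adjusted p = 0.0458). Actn1 passed without replicate 3 (adjusted p = 0.0432) and Tns2 without replicate 4 (adjusted p = 0.0497).

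Of 20 genes listed for inhibitors and trafficking 16 were on the array, and 3 of these were under the minimum. Of the 13 tested genes 0 passed in either fit, beside the same shares of all genes. An unadjusted p under 0.05 was found for 1, and the median difference was -0.03. Rab21, which carries beta-1 integrins into the cell, differed by 0.37 (adjusted p = 0.14) and Rab11a, a recycling GTPase, by -0.33 (adjusted p = 0.238). Nisch, which binds Itga5, differed by -0.27 and Rab5a, of early endosomes, by -0.39. Itgb1bp1, an inhibitor that binds the tail of Itgb1, differed by 0.07 (adjusted p = 0.853).

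**Figure D5:**
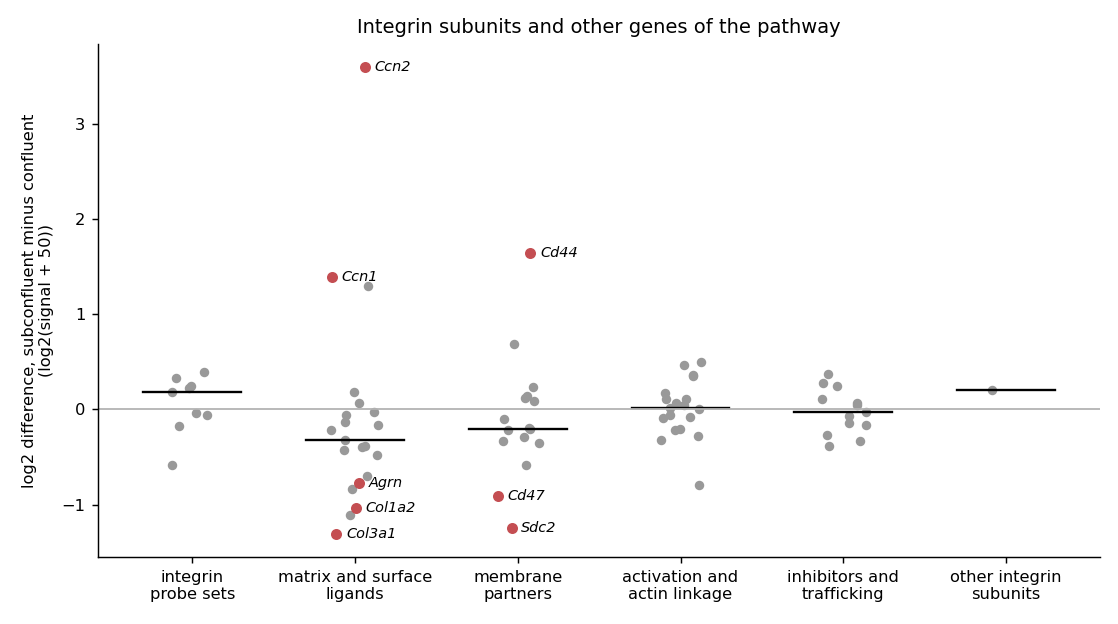
Difference of each tested gene on the log2(signal + 50) scale (vertical axis, subconfluent minus confluent) for the 9 integrin probe sets and 5 lists of other genes of the pathway, with 1 probe set a gene in the lists, red points for those that passed and black lines for medians. Red points are seen for 5 ligands and 3 membrane partners, from -1.31 (Col3a1) to 3.59 (Ccn2), and for no integrin subunit, which span -0.59 to 0.39.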

How the data were processed

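RNA of 4 confluent and 4 subconfluent samples was measured on 1 single-colour Affymetrix mouse array each. The deposited values are signals, linear, 1 for each probe set, which the authors computed by Affymetrix's statistical algorithm and brought to a target of 500, per the labels. Which version of the software was used is not given in the sources used here. The mean of each array without the lowest and highest 2% was 499.8 to 499.9, so no further normalization was applied. Detection calls and images were not used here.

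The array holds 12488 probe sets, and its 66 controls were left out. The platform's annotation gave 1 symbol for 10855, several for 396 and none for 1237, and 0 symbols were updated by RefSeq. Only probe sets with 1 symbol were named. Probe sets with a mean of at least 200 (6007) were tested as log2(signal + 50) by limma 3.58.1 in R 4.3.3, with lmFit and eBayes with a variance trend, two-sided, adjusted by Benjamini-Hochberg over all 6007, at a threshold of 0.05. The script was tested on simulated data. Partner ratios were tested by exact permutation in Python 3.11.15 with scipy 1.17.1, numpy 2.4.6 and pandas 2.3.3, and plots were made with matplotlib 3.10.9.

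The same-number check correlated the arrays' deviations from their group means. Arrays of the same number, an experiment number in the labels, gave 0.486, 0.357, 0.516 and 0.348. The highest correlation with another number was 0.0681, so samples of a number were treated as pairs in the blocked fit. The main fit and the permutation of partner ratios were unpaired. Alternatives were the number as a block, the chip lot, other pseudocounts, filters, normalizations and variance models, the scale factor as a covariate, and leaving out arrays or pairs. The genes and lists were chosen with earlier results of these data known. The rule for named genes took all 8 subunits, up to 4 genes of each list with the smallest p, and the 3 nearest patterns of the subunit probe set with the smallest p in each direction. Tested genes named beyond it were Agrn, Nid1, Lama5, Col4a2, Col1a1, Fbln2, Fn1, Tln1, Ilk and Itgb1bp1. Further ones were Col4a1, Lama4, Lamb1, Lamb2, Lamc1 and Hspg2. Untested genes of the other integrins, of the ligands and of the markers were also named, with their values only. Proteins and gene coordinates other than the promoter windows were not used here.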

Additional observations from a re-analysis of the deposited data

Results flagged for a closer look

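Within groups of 4 arrays, the gap of the highest or lowest value to its neighbour was set against the group's range, with Dixon's critical value for 4 samples as the limit. Of 44 groups examined, over all 15 probe sets and the 7 partner ratios, 2 passed it, and chance gives about 1 in 20. The log2 ratio of Itga5 to Itgb1 was -6.55 on subconfluent replicate 1, above the other subconfluent arrays, with a gap of 0.904 of the range, and Itga5 is under the signal minimum. The log2 ratio of Itga7 to Itgb1 was -4.55 on subconfluent replicate 3, above the other subconfluent arrays, with a gap of 0.888 of the range.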

How the results depend on the processing

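Under each alternative 0 integrin probe sets passed in either direction. The number of all probe sets that passed, 165 higher and 244 lower, was 597 and 679 with the replicate block, 453 and 485 with the chip lot as a random block, 368 higher with the lot as a fixed block, 2 and 3 within lot C, and 72 and 136 with no filter. With 1 array left out it was 18 to 342 higher and 80 to 345 lower, lowest without subconfluent replicate 4 and highest without confluent replicate 2, and with 1 pair left out in the fit with the pairs as a block 223 to 652 and 353 to 618. The pathway genes, 3 higher and 5 lower, were 5 and 11 with the replicate block, 0 and 0 within lot C, and 1 lower with no filter, and over the fits that leave out an array or a pair 1 to 5 higher and 0 to 12 lower. The replicate block changed no call of an integrin probe set.

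Of the integrin probe sets, Itga7 161497_f_at turned to -0.35 with the lot as a fixed block and -0.91 within lot A, and ran from -0.18 to 0.74 with arrays or pairs left out. Itgav 104385_i_at was 0.04 within lot A, Itgav 98366_at was -0.20 within lot C and -0.21 to 0.49 with arrays or pairs left out, Itgav 104386_f_at was -0.28 to 0.06 with arrays or pairs left out, and Itgb5 162218_f_at was 0.01 after quantile normalization and -0.18 to 0.05 with arrays or pairs left out. Fstl1 was -0.22 within lot A. With a pseudocount of 150 the ratios to Itgb1 differed by -0.12 for Itga5, -0.08 for Itga6 and -0.03 for Itga7, and with a pseudocount of 1 that of Itga6 differed by 1.33, so its size and sign depend on the pseudocount. With 1 array left out the ratio of Itga5 to Itgb1 differed by -0.16 to 0.15, of Itga7 to Itgb1 by -0.32 to 0.36 and of Itgb3 to Itgav by -0.02 to 0.47. The cause was not tested. Signals near the minimum, as for Itga3 and Itga7, and the number of arrays limit what could be detected.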
